A study of Homo sapiens with 6 samples.

Results

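The 10 genes described here are the insulin-like growth factors IGF1 and IGF2, the IGF2 receptor IGF2R and the IGF-binding proteins IGFBP1 to IGFBP7, taken by their symbols from a pooled CRISPR/Cas9 knockout screen. The screened cells, MDA-MB-231, are an established line from a triple-negative breast tumour. They are 10 of the 18888 protein-coding symbols in the deposited count table and have 54 of its 107237 sgRNAs. The cells stably expressed Cas9 and carried the lentiviral GeCKO v2 library, in which each virus brings 1 sgRNA that directs Cas9 to 1 gene. After 7 days of puromycin selection, one arm received the vehicle DMSO and the other 10 µM erlotinib, an inhibitor of the EGFR kinase, for 7 days, and the integrated sgRNAs were then read by amplicon sequencing of genomic DNA in 3 libraries per condition. All 6 libraries therefore come from Cas9-expressing, library-carrying, puromycin-selected cells, and the sources used here do not say whether the Cas9 line was a single clone. The labels do not tie the 3 libraries of a condition to separate cultures, so p-values measure only the spread between these libraries, which may be technical.

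IGF1 and IGF2 are secreted growth factors that activate the receptor kinase IGF1R on the cell surface. IGFBP1 to IGFBP6 bind them with high affinity in body fluids and tissue, carry them, prolong their lives and limit their access to the receptor, while IGFBP7 binds them weakly. IGF2R, the cation-independent mannose 6-phosphate receptor, takes up IGF2 for breakdown in lysosomes and does not transmit a kinase signal. In a pooled culture the cells share their medium, so a secreted protein that the line makes can still come from neighbours of a cell that lost it. Whether these cells make the proteins described here was not measured.

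The sgRNAs on which the results turn are given below, 5′ to 3′, each 20 bases long and numbered within its gene in alphabetical order. The 12 bases in capitals lie next to the PAM, the motif that Cas9 needs beside its target, and are the part of the sgRNA where mismatches are least tolerated. All 6 sgRNAs of IGFBP6 are shown because it is the member that the study names for this screen. Of these, 1 had the highest count of any member sgRNA in an erlotinib library.
IGFBP6 sgRNA 1: aacgcaccATCTCAGTGTCT
IGFBP6 sgRNA 2: catccgatCCACACACCAGC
IGFBP6 sgRNA 3: ccgagcagCAGCGCCCGCAA
IGFBP6 sgRNA 4: ggcgccttGGCGCGGTGCCC
IGFBP6 sgRNA 5: gggcccatGCCGTAGACATC
IGFBP6 sgRNA 6: gtgcccaaTTGTGACCATCG

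The other member sgRNAs with a count in an erlotinib library were those of IGF1 and IGFBP4 that follow, shown with IGFBP4 sgRNA 5, whose target overlaps that of IGFBP4 sgRNA 1.
IGF1 sgRNA 1: aaaagcagCACTTAAATAAT
IGFBP4 sgRNA 1: atccccaaCTGCGACCGCAA
IGFBP4 sgRNA 5: gttgccgtTGCGGTCGCAGT

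The sgRNAs found in all 3 DMSO libraries, besides IGFBP6 sgRNA 6, were the next 4. IGFBP5 sgRNA 3 stands with them because its target overlaps that of IGFBP5 sgRNA 6.
IGFBP3 sgRNA 1: aaatccctTCTTGTCACAGT
IGFBP3 sgRNA 5: cgtccgtcTCCAGCACGCAC
IGFBP4 sgRNA 4: gaagcttcACCCCCGTCTTC
IGFBP5 sgRNA 6: taccgcgaGCAAGTCAAGAT
IGFBP5 sgRNA 3: caccgatcTTGACTTGCTCG

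For the 5 genes without an sgRNA of either kind, the sgRNA with the highest mean abundance in DMSO is shown.
IGF2 sgRNA 1: catagacgCGAGTTCGGTCT
IGF2R sgRNA 2: cggactgaAGCTGGTGCGCA
IGFBP1 sgRNA 3: tgcagtcgCCACGCCGCACG
IGFBP2 sgRNA 4: gctccttcATACCCGACTTG
IGFBP7 sgRNA 1: acaggtatCTCCTCTAAGTA

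The total counts were 1574743 to 4263494 per DMSO library and 1773235 to 3332895 per erlotinib library. Abundance is given as CPM, the count scaled to a library total of 1000000, summed over the sgRNAs of a gene for a gene-level value. A count of 0 allows up to 3 counts, which came to 0.704 to 1.91 CPM in DMSO and 0.9 to 1.69 CPM in erlotinib libraries. These limits cover counting error only, because amplified reads that carry no molecular identifier cannot be counted as separate molecules. The Wilson intervals treat each member sgRNA as an independent draw, although some targets overlap. They leave out the spread between libraries and are no test of a difference from other genes. Over all sgRNAs with a target, the share with a count averaged 35.7% ± 3.01 (SD, n = 3) under DMSO. Under erlotinib it averaged 1.95% ± 0.156 (SD, n = 3). Each result on the IGF genes is therefore set beside the value over all sgRNAs or genes.

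In the DMSO libraries, the sgRNAs of the IGF genes were about as often detected as those of other genes. Of the 54 sgRNAs, 22 had a count in replicate 1 (40.7%, 95% Wilson confidence interval 28.7 to 54), 18 in replicate 2 (33.3%, 22.2 to 46.6) and 15 in replicate 3 (27.8%, 17.6 to 40.9), where all sgRNAs with a target gave 39.1%, 33.4% and 34.5%. Each of these intervals holds the value over all sgRNAs. Together the 54 sgRNAs had 499, 556 and 481 CPM in DMSO replicates 1 to 3, and 54 of 107237 sgRNAs would have 504 CPM if all listed sgRNAs were equally abundant. In all, 37 of the 54 (68.5%) were seen in any DMSO library, beside 69.0% of all sgRNAs with a target. No member sgRNA was seen in erlotinib libraries alone, so 37 were also seen in any of the 6 libraries. Over all sgRNAs with a target, 74555 were seen in any library and 73312 in a DMSO library. With only 3 member sgRNAs seen in erlotinib, this is no trait of the IGF genes.

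Most of the detected sgRNAs of the IGF genes were found in a single DMSO library. Of the 37, 24 (64.9%) were in 1 library, 8 (21.6%) in 2 and 5 (13.5%) in all 3, while over all detected sgRNAs with a target these shares were 55.8%, 33.4% and 10.9%. The 5 sgRNAs found in all 3 libraries were IGFBP3 sgRNA 1 and 5, IGFBP4 sgRNA 4, IGFBP5 sgRNA 6 and IGFBP6 sgRNA 6. IGFBP1 and IGFBP7 had no sgRNA in more than 1 DMSO library.

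**Figure D1:**
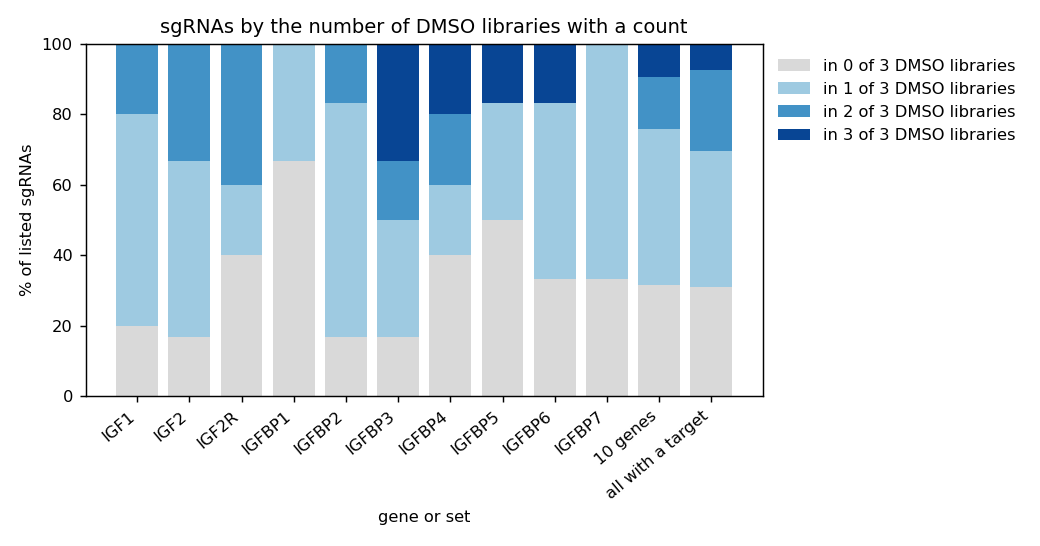
sgRNAs of each gene (bars, % of listed sgRNAs) by the number of DMSO libraries in which they had a count, with the 10 genes together and all sgRNAs with a target on the right. IGFBP3 had 2 of its 6 sgRNAs in all 3 libraries, IGFBP1 had 2 of its 3 sgRNAs in none, and over the 10 genes 31.5% were in none, beside 31% of all sgRNAs with a target.

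The count table listed 6 sgRNAs for IGF2, IGFBP2, IGFBP3, IGFBP5, IGFBP6 and IGFBP7, 5 for IGF1, IGF2R and IGFBP4, and 3 for IGFBP1. The sgRNAs of the IGF genes were rich in G and C. The median GC content was 65% for the 17 absent from DMSO, 60% for the 24 in 1 DMSO library and 60% for the 13 in 2 or 3, beside 50% in each of these classes over all sgRNAs with a target. No member sgRNA differed by fewer than 4 of 20 bases from any other listed sgRNA. IGFBP6 sgRNA 1 differed by at least 5 bases from every other one. Between the 10 genes, the closest sgRNAs were IGF1 sgRNA 3 and IGF2 sgRNA 4, with 5 mismatches.

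In 5 of the genes, a pair of sgRNAs overlapped in sequence on opposite strands, so that their targets are not independent. IGFBP4 sgRNA 1 and 5 shared 13 bases, with Cas9 cuts 7 bases apart as predicted from the sequences alone. sgRNA 5 had 111 and 126 counts in DMSO replicates 1 and 2 and 0 elsewhere, whereas sgRNA 1 had 2 counts in DMSO replicate 1 and 224 in erlotinib replicate 3. In IGFBP5, sgRNA 3 and 6 shared 15 bases with cuts 9 bases apart, and sgRNA 3 had 0 counts in all 6 libraries while sgRNA 6 was in all 3 DMSO libraries. The other pairs were in IGF1 (sgRNA 2 and 4, 12 shared bases), IGF2 (sgRNA 2 and 5, 15 shared bases) and IGF2R (sgRNA 2 and 4, 17 shared bases). In none of the 5 pairs did both sgRNAs have the same counts.

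In the erlotinib libraries, 3 of the 54 sgRNAs had a count, each in a single library. The share was 0 of 54 in replicate 1 (95% Wilson confidence interval 0 to 6.64%), 1 of 54 in replicate 2 (1.85%, 0.328 to 9.77) and 2 of 54 in replicate 3 (3.70%, 1.02 to 12.5). Over all sgRNAs with a target it was 2.05%, 1.77% and 2.02%, which lies within each of these intervals. On average 34% ± 6.5 (SD, n = 3) of the member sgRNAs were detected under DMSO and 1.85% ± 1.85 (SD, n = 3) under erlotinib. Of the 37 sgRNAs found in DMSO, 34 (91.9%) had 0 counts in every erlotinib library, beside 94.0% over all sgRNAs with a target.

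**Figure D2:**
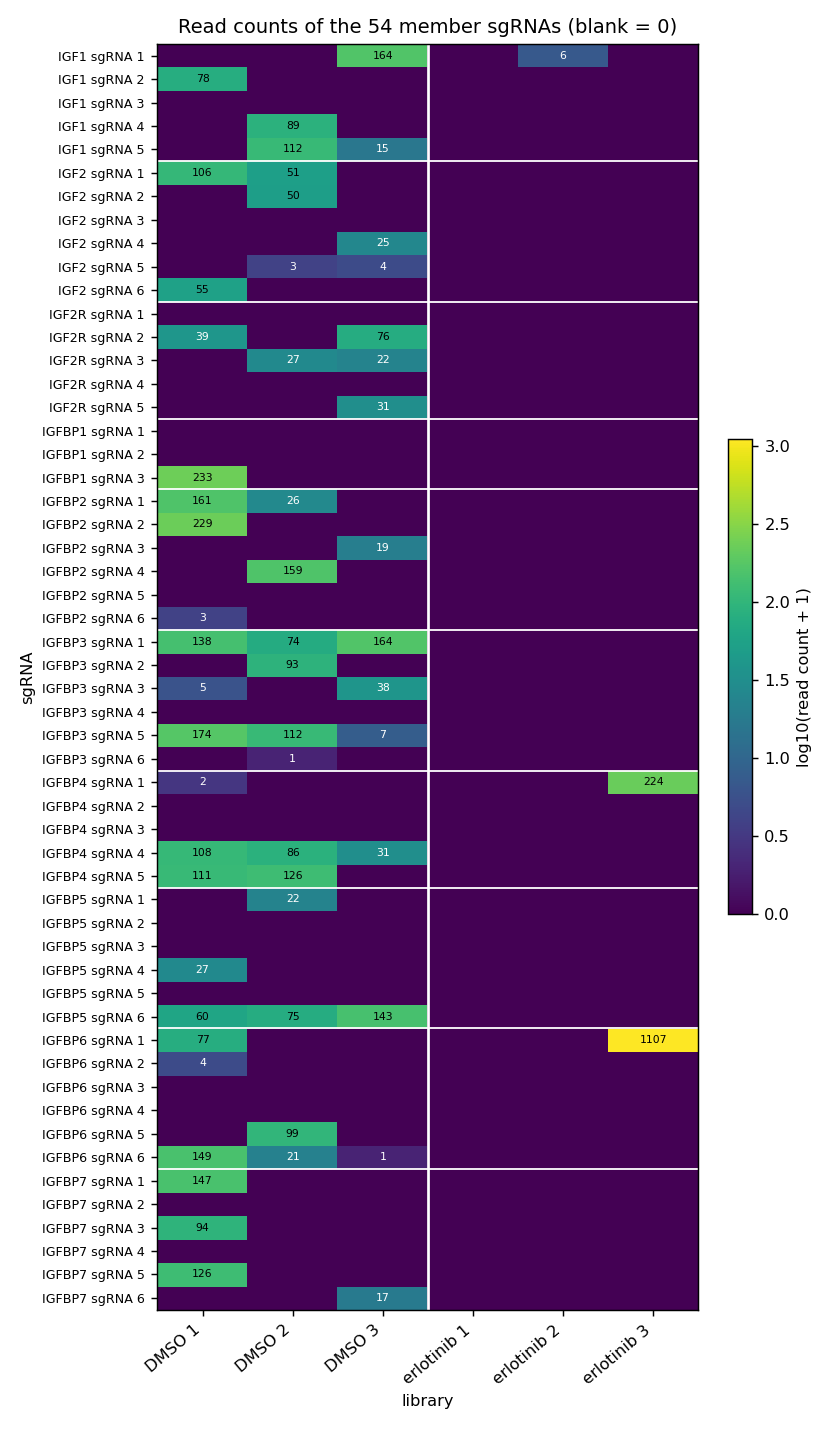
Read counts of the 54 sgRNAs (rows, grouped by gene) in the 6 libraries (columns), with colour on a log10(count + 1) scale and each count above 0 written in its cell. The DMSO columns hold 22, 18 and 15 filled cells and the erlotinib columns 0, 1 and 2, with 1107 counts of IGFBP6 sgRNA 1 in erlotinib replicate 3 as the highest.

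The 3 sgRNAs differed in how they stood among those present in their library. IGFBP6 sgRNA 1 had 1107 counts (332 CPM) in erlotinib replicate 3, which ranked 617 among the 2183 sgRNAs detected there, whose median was 341 counts. IGFBP4 sgRNA 1, with 224 counts (67.2 CPM) in the same library, ranked 1239. IGF1 sgRNA 1 had 6 counts in erlotinib replicate 2, which ranked 1723 of 1910 detected, where the median was 197. IGFBP6 sgRNA 1 alone made up 83.2% of the counts of the 10 genes in erlotinib replicate 3.

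Each of the 3 genes with counts in erlotinib had them in 1 library. Among protein-coding symbols, 24.9% (4699 of 18888) had a count in any erlotinib library, and 82.7% of those had it in exactly 1.

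For the test of single sgRNAs, the 74555 targeting sgRNAs seen in any library were fitted in edgeR, erlotinib against DMSO, with upper-quartile normalization at the 0.99 quantile. The likelihood ratio test is the one named in the study's methods. Of the 37 tested sgRNAs of the IGF genes, 17 were lower in erlotinib at an unadjusted p under 0.05, and percent called over all tested sgRNAs was 36.6%. None of the 37 was higher, beside 0.84% of all. All 37 had a DMSO count, and for the 34 at 0 in erlotinib only a lower value was possible. After Benjamini-Hochberg adjustment 0 of the 37 passed in the likelihood ratio test (smallest adjusted p = 0.0755 for a member). The share over all sgRNAs was not taken for that adjusted test, so this 0 cannot be set beside it. In edgeR's quasi-likelihood test 0 passed as well (background 0%, smallest adjusted p = 0.0998 for a member), with 14 at an unadjusted p under 0.05, where the background was 31.2%. DESeq2's Wald test also called 0 after adjustment and 5 before it (background 10.5%). The likelihood ratio count was 10, 11 or 8 when erlotinib replicate 1, 2 or 3 was left out (backgrounds 23.3%, 23.8% and 21%). After adjustment the quasi-likelihood test called 6 member sgRNAs when DMSO replicate 2 was left out (background 19.3%) and 12 when DMSO replicate 3 was left out (22.9%).

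At the gene level, counts were summed over the sgRNAs of each symbol and edgeR's quasi-likelihood test was run on the 20409 genes and microRNAs with a count. In erlotinib 7 of the 10 IGF genes were lower at an adjusted p under 0.05, namely IGF1, IGF2, IGF2R, IGFBP2, IGFBP3, IGFBP5 and IGFBP7, and percent called over all genes was 69.2%. None was higher, and the background was 0% in that direction. The median log2 fold change of the 10 was −11.33, beside −11.28 over all genes tested. In 6 of the 10 every DMSO library lay above every erlotinib library in CPM, beside 56.7% of all genes tested. Also 7 of the 10 had 0 counts in every erlotinib library, beside 75.6%. Each of these values was close to that over all genes. For genes at 0 in all erlotinib libraries, folds are lower bounds that set each such library at 3 counts. The log2 fold changes of those genes rest on edgeR's prior count and are not bounds.

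**Figure D3:**
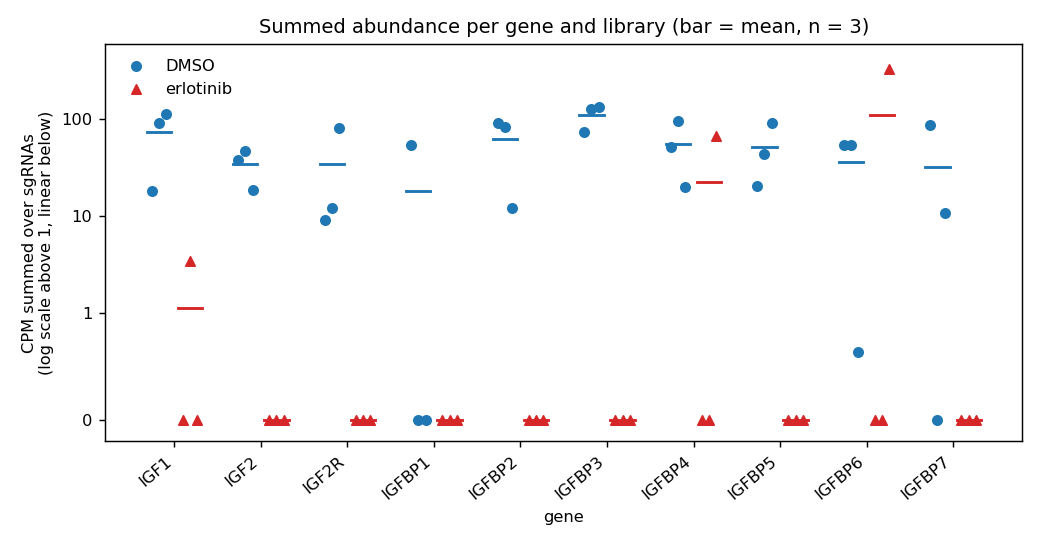
CPM summed over the sgRNAs of each gene (y axis, log scale above 1 and linear below) in the 3 DMSO (circles) and 3 erlotinib libraries (triangles), with the mean of each condition as a bar. In 7 genes all erlotinib libraries are at 0, and the highest point is IGFBP6 in erlotinib replicate 3 at 332 CPM.

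The sgRNAs of both ligand genes had lower summed counts in erlotinib, and 69.2% of all genes tested were called lower. IGF1, the main mediator of growth hormone action, had 18.3, 91.1 and 114 CPM in DMSO replicates 1 to 3 and 0, 3.38 and 0 CPM in erlotinib replicates 1 to 3. Its DMSO and erlotinib libraries did not overlap, and the log2 fold change was −8.67 (adjusted p = 0.0176, edgeR quasi-likelihood test). A different set of sgRNAs carried IGF1 in each DMSO library: sgRNA 2 alone in replicate 1 with 78 counts, sgRNA 4 and 5 in replicate 2 with 89 and 112, and sgRNA 1 and 5 in replicate 3 with 164 and 15. sgRNA 3 was at 0 throughout.

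IGF2, a growth factor with a large part in fetal growth, had 37.8, 47.1 and 18.4 CPM in DMSO and 0 counts in every erlotinib library. Its mean in erlotinib was lower by at least 25.4-fold (adjusted p = 0.00449, edgeR quasi-likelihood test). Its leading sgRNA 1 had 106 and 51 counts in DMSO replicates 1 and 2, and the other 4 detected sgRNAs had 3 to 55 counts in any library. INS-IGF2, a read-through gene that joins IGF2 with the insulin gene INS, had 4 sgRNAs of its own, with 277, 81 and 37 counts in DMSO and 0 in erlotinib libraries (adjusted p = 0.00389, edgeR quasi-likelihood test).

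IGF2R had 9.15, 12.2 and 81.9 CPM in DMSO and 0 in erlotinib libraries. The bound was again at least 25.4-fold lower (adjusted p = 0.0088, edgeR quasi-likelihood test). DMSO replicate 3 stood above the other 2 and held 3 of the 3 detected sgRNAs, with 76, 22 and 31 counts for sgRNA 2, 3 and 5. Without that library the call was lost (adjusted p = 0.0766, edgeR quasi-likelihood test).

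Among the binding proteins, IGFBP3, the main carrier of IGFs in blood, had the highest summed sgRNA abundance in DMSO. It had 74.4, 127 and 133 CPM in the DMSO libraries and none under erlotinib, which makes it at least 82-fold lower there (adjusted p = 0.00385, edgeR quasi-likelihood test). IGFBP3 sgRNA 1 gave 138, 74 and 164 counts across the DMSO libraries, and sgRNA 5 gave 174, 112 and 7. Both were lower in the likelihood ratio test before adjustment (unadjusted p = 0.00472 and 0.00481, adjusted p = 0.0755 for both, edgeR). IGFBP3 sgRNA 6 had a single count, in DMSO replicate 2, and sgRNA 4 had none.

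IGFBP5, a binding protein that also attaches to extracellular matrix, had 20.4, 44.0 and 90.8 CPM in DMSO and none under erlotinib, at least a 38.1-fold lower level (adjusted p = 0.00385, edgeR quasi-likelihood test). Its sgRNA 6 gave 60, 75 and 143 counts across the DMSO libraries. Of the member sgRNAs it had the smallest p in the likelihood ratio test (unadjusted p = 0.00418, adjusted p = 0.0755, edgeR). It accounted for every count of the gene in DMSO replicate 3. Only 2 others were detected, with 22 and 27 counts.

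IGFBP2, which lies next to IGFBP5 in the RefSeq gene order, had 92.2, 83.9 and 12.1 CPM in DMSO and none under erlotinib, at least a 46.2-fold lower level (adjusted p = 0.00432, edgeR quasi-likelihood test). Of its 5 detected sgRNAs, 4 were in 1 DMSO library each. They were sgRNA 2 with 229 counts in replicate 1, sgRNA 4 with 159 in replicate 2, sgRNA 3 with 19 in replicate 3 and sgRNA 6 with 3 in replicate 1. The fifth, sgRNA 1, had 161 and 26 counts in replicates 1 and 2.

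IGFBP1, a liver-made binding protein whose gene neighbours IGFBP3, rested on 1 sgRNA. IGFBP1 sgRNA 3 had 233 counts (54.7 CPM) in DMSO replicate 1, and all other values were 0, so the DMSO and erlotinib libraries overlapped at 0. The gene did not pass the test (adjusted p = 0.0787, edgeR quasi-likelihood test).

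IGFBP7, a matrix-associated protein with weak IGF binding, had 86.1, 0 and 10.8 CPM in DMSO and 0 in erlotinib libraries. Its 3 sgRNAs in DMSO replicate 1 had 147, 94 and 126 counts, and sgRNA 6 had 17 in replicate 3. The gene passed the test (adjusted p = 0.0368, edgeR quasi-likelihood test) with a mean at least 23.8-fold lower, although 1 DMSO library was at 0. The call was lost without DMSO replicate 1 (adjusted p = 0.167), DMSO replicate 3 (0.0786) or erlotinib replicate 1, 2 or 3 (0.0536, 0.0514 and 0.0537) and with total-count scaling (0.0534, all edgeR quasi-likelihood test).

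IGFBP4, a binding protein cleaved by the protease PAPPA, had 51.8, 96.1 and 19.7 CPM in DMSO and 0, 0 and 67.2 CPM in erlotinib replicates 1 to 3. The ranges overlapped, and the gene did not pass (log2 fold change −4.20, adjusted p = 0.173, edgeR quasi-likelihood test). The sgRNAs behind these values differed between conditions. IGFBP4 sgRNA 4 had 108, 86 and 31 counts in the DMSO libraries, and sgRNA 5 had 111 and 126 in replicates 1 and 2, all of which were at 0 in erlotinib. Both were lower before adjustment (unadjusted p = 0.00678 and 0.00653, adjusted p = 0.0755, edgeR likelihood ratio test). The whole erlotinib value came from sgRNA 1, which had 2 counts in DMSO replicate 1 and none in the other DMSO libraries. Without erlotinib replicate 3 the gene was at 0 in erlotinib, so only a lower value was possible. It was then called (adjusted p = 0.00535, edgeR quasi-likelihood test), as were 66.7% of all genes tested in that setting.

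IGFBP6, which binds IGF2 in preference to IGF1, had sgRNAs on both sides, 1 with its highest count under erlotinib and 3 seen under DMSO alone. The gene had 53.9, 54.4 and 0.635 CPM in DMSO replicates 1 to 3 and 0, 0 and 332 CPM in erlotinib replicates 1 to 3. DMSO replicate 3 held a single count, and erlotinib replicate 3 was above every DMSO library. The means were 36.3 ± 30.9 CPM (SD, n = 3) in DMSO and 111 ± 192 CPM (SD, n = 3) in erlotinib, a ratio of 3.05 that rests on 1 library. In the test the log2 fold change was −1.32 (adjusted p = 0.69, edgeR quasi-likelihood test), and it was 0.17 with TMM and 1.6 with total-count scaling, so IGFBP6 has no settled direction. The median over all genes moved with these scalings from −11.28 to −10.16 and −9.32. The upper-quartile factors of the main gene-level fit were 0.346 to 0.415 for DMSO and 2.53 to 2.75 for erlotinib libraries. They enter every main log2 fold change and lower it against the ratio of CPM, which uses library totals alone.

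Among the sgRNAs of IGFBP6, sgRNA 6 gave 149, 21 and 1 counts across the DMSO libraries, and sgRNA 5 had 99 counts in DMSO replicate 2. Both were at 0 in erlotinib and lower before adjustment (unadjusted p = 0.0247 and 0.0356, adjusted p = 0.0951 and 0.112, edgeR likelihood ratio test). IGFBP6 sgRNA 1 had 77 counts in DMSO replicate 1, 1107 in erlotinib replicate 3 and none elsewhere (log2 fold change 2.44, adjusted p = 0.395, edgeR likelihood ratio test). IGFBP6 sgRNA 2 had 4 counts in DMSO replicate 1 alone, and sgRNA 3 and 4 had none in any library. Without erlotinib replicate 3, the only erlotinib library with counts of IGFBP6, the gene was at 0 in erlotinib, so only a lower value was possible. It was then called lower (log2 fold change −11.00, adjusted p = 0.0263, edgeR quasi-likelihood test), as were 66.7% of all genes tested in that setting.

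**Figure D4:**
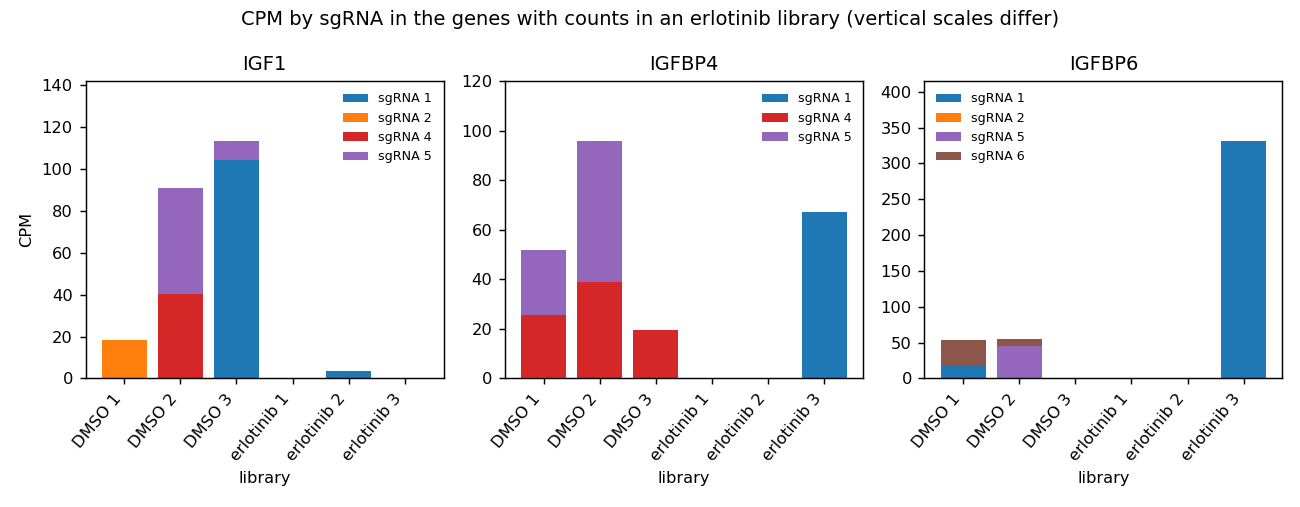
CPM in each library (bars), stacked by sgRNA, for the 3 genes with counts in an erlotinib library. The erlotinib bars of IGF1, IGFBP4 and IGFBP6 reach 3.38, 67.2 and 332 CPM, each consists of sgRNA 1 of its gene, and the vertical scales differ between panels.

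The 5 protein-coding symbols whose CPM over the 6 libraries lay nearest to that of IGFBP6, by Euclidean distance of log2(CPM + 1), were CA6 (0.311), C2orf61 (0.811), PGAM5 (0.847), PTPLB (1.05) and TATDN2 (1.05). CA6, which encodes a salivary carbonic anhydrase, had 274, 126 and 1 counts in DMSO and 0, 0 and 1250 in erlotinib replicates 1 to 3. All 5 had at most 2 counts in DMSO replicate 3 and their erlotinib counts in replicate 3 alone. They were picked by likeness to IGFBP6 over these same 6 libraries, so the shared pattern follows from the choice.

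**Figure D5:**
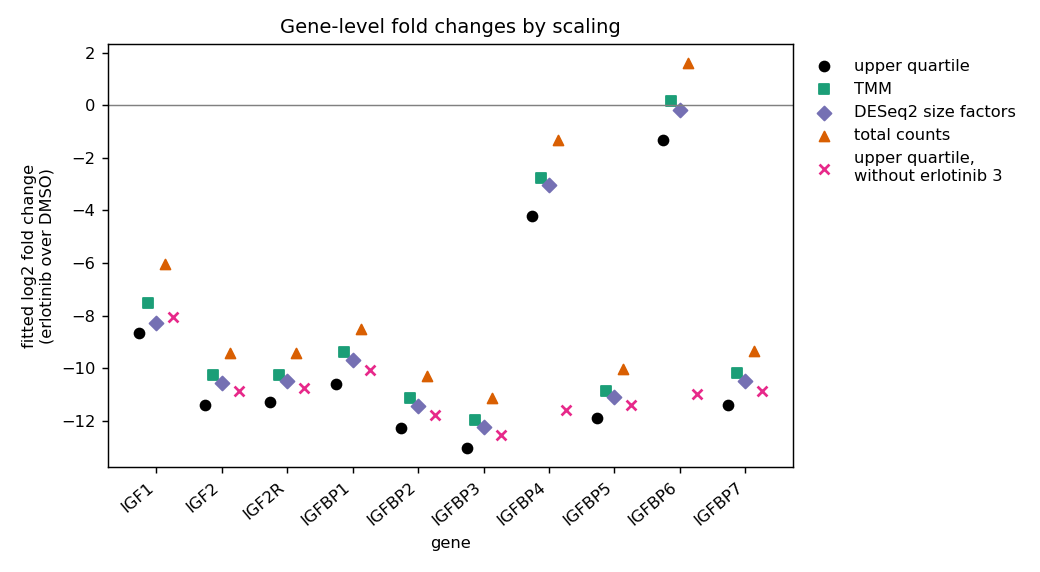
Fitted log2 fold change, erlotinib over DMSO, of each gene's summed counts under 4 scalings with all libraries, and with upper-quartile scaling without erlotinib replicate 3. IGFBP6 lies at −1.32, 0.17 and 1.6 with upper-quartile, TMM and total-count scaling, the other 9 genes are below 0 in all, and without erlotinib replicate 3 IGFBP4 is at −11.58 and IGFBP6 at −11.00.

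Since the genes differ in their number of sgRNAs, their levels in DMSO were compared per listed sgRNA. IGFBP3 was highest with 18.6 ± 5.36 CPM (SD, n = 3), above 94.8% of protein-coding symbols, followed by IGF1 with 14.9 ± 9.97, IGFBP4 with 11.2 ± 7.67, IGFBP2 with 10.5 ± 7.34 and IGFBP5 with 8.62 ± 5.97. Below them were IGF2R with 6.89 ± 8.23, IGFBP1 with 6.07 ± 10.5, IGFBP6 with 6.05 ± 5.15, IGF2 with 5.74 ± 2.44 and IGFBP7 with 5.38 ± 7.82, the last above 24.1% of protein-coding symbols. No neighbours in this order differed beyond the range of their libraries. IGFBP3 was above IGF2 and IGFBP6 in every DMSO library, its lowest value of 12.4 lying above their highest of 7.86 and 9.07.

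The wider pathway was read from 6 lists with 55 genes, of which 39 (70.9%) were lower and 0 higher in the gene-level test, near the 69.2% over all genes. Of the 18 IGF receptors and proximal adaptors, 10 were lower, with a median log2 fold change of −11.89. They included the signaling receptor IGF1R, with 75, 0 and 214 counts in DMSO and 0 in erlotinib (adjusted p = 0.0323), the insulin receptor INSR (0.00385), the adaptor SHC1 (0.00385) and the kinase AKT1 (0.00385, all edgeR quasi-likelihood test). All 10 genes of the ternary complex and of IGFBP proteolysis were lower, and all were at 0 in erlotinib, beside 69.2% and 75.6% of all genes tested. Among them the acid-labile subunit IGFALS, which binds IGFBP3 and IGF in blood, had 117, 91 and 0 counts in DMSO replicates 1 to 3. The IGFBP4 protease PAPPA had 0, 333 and 22. Their means were at least 16.9-fold and 40.5-fold lower (adjusted p = 0.0361 and 0.0367, edgeR quasi-likelihood test). Both had a DMSO library at 0, so the conditions overlapped at 0. The PAPPA inhibitor STC2 was at least 45.6-fold lower and the metalloprotease ADAM28 at least 67.3-fold lower.

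Over all genes tested, 69.2% were lower and the median log2 fold change was −11.28, which the following values should be read beside. Of 9 IGFBP-related secreted proteins, 6 were lower (median log2 fold change −12.20), with WISP1 and WISP2 leading by p. Of 9 insulin and relaxin family ligands, 8 were lower (median −11.70), with RLN2 and RLN3 leading. The IGF2 mRNA-binding proteins, which bind the transcript and not the growth factor, were lower for IGF2BP1 and IGF2BP3, while IGF2BP2 had 79 counts in erlotinib replicate 1 and did not pass (adjusted p = 0.125, edgeR quasi-likelihood test). Of 6 binding partners of IGFBPs or relatives of IGF2R, 3 were lower, led by the other mannose 6-phosphate receptor M6PR and by TMEM219, a receptor for IGFBP3.

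In these lists 12 of the 55 genes (21.8%) had a count in an erlotinib library, beside 24.9% of protein-coding symbols. The insulin receptor substrates IRS1, IRS2 and IRS4, which dock on IGF1R and the insulin receptor, each had 1 sgRNA in 1 erlotinib library, with 446, 2207 and 1983 counts in replicates 1, 3 and 1. The sgRNA of IRS4 had 82, 127 and 96 counts in DMSO, and that of IRS1 had 1 count in DMSO replicate 2. SOS1, an activator of RAS, had 623 counts in erlotinib replicate 2 and 1 in replicate 1, GRB14 had 41 in replicate 2 and LRP1 had 96 in replicate 1. In erlotinib replicate 3, CYR61 had 100 counts, PLAUR 12 and RLN3 1. INSL5 had 114 counts in replicate 2 and 91 in replicate 3, from different sgRNAs, and was the only one of these 12 besides SOS1 with counts in more than 1 erlotinib library.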

How the data were processed

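The data are read counts of sgRNAs amplified from genomic DNA, in 3 DMSO and 3 erlotinib libraries, grouped by the treatment label. The authors deposited whole-number counts per sgRNA and library that were not normalized, and the counting program is not given in the sources used here. The 107237 listed sgRNAs are fewer than the study gives for the library, and why the others are absent is not known here. Of the listed sgRNAs with a target, 31689 had no count in any library, so a lack of counts did not by itself remove an sgRNA. The labels give polyA RNA as the molecule and the design text names xenografts and a mouse model, whereas the protocol, which was followed, describes this screen. Each condition has its own reverse primer, so primer and condition cannot be told apart.

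The 993 non-targeting sgRNAs were left out of the tests. The filter named in the study's methods compares counts with library medians, which were all 0 over sgRNAs, so it took out no sgRNA. All sgRNAs with a count were tested. All genes with a count were tested too, and the main fit put no median filter on summed gene counts. Counts were fitted with edgeR 4.0.16 in R 4.3.3, with DESeq2 1.42.0 as an alternative, and the tables were handled in Python 3.11.15 (pandas 2.3.3; scipy 1.17.1). Thresholds were an adjusted p under 0.05 (Benjamini-Hochberg over all features) or an unadjusted p under 0.05 where stated. The fits were also run on simulated data in which a small set of well-counted features changed. The simulated libraries differed far less from each other than these do, so that run cannot show how the fits perform here.

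The members, lists and rules were chosen with earlier results of these data known. All 10 genes were named, as were sgRNAs of IGFBP6, those with erlotinib counts, those in all 3 DMSO libraries and each gene's leading sgRNA, and list genes with erlotinib counts or among the 2 smallest p. The values of 1 such list gene are not reported here. List genes named beyond that rule (IGF1R, INSR, IGFALS, PAPPA, INS-IGF2) were chosen after their values were seen. No genome was used, so targets have no coordinates here. RefSeq (GRCh38.p14) gave the gene order. Alternatives were other scalings, filters and tests, a replicate block and leaving out each library.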

Additional observations from a re-analysis of the deposited data

How the results depend on the processing

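Wherever they were tested, the 14 alternatives kept the direction of all 10 genes except IGFBP6, which went from a log2 fold change of −1.32 to 0.17 with TMM and 1.6 with total-count scaling. The likelihood ratio count of lower member sgRNAs, 17 of 37, was 3 of 3 tested with edgeR's filterByExpr (76.5% of all sgRNAs tested), 5 with DESeq2's Wald test (10.5%), 4 with the replicate number as a block (replicate block, 5.57%) and 8 to 17 with 1 library left out (21% to 48.8%). The adjusted quasi-likelihood count, 0 of 37, was 3 of 3 tested with filterByExpr, 12 of 16 tested with a count above the median in at least 2 libraries and 0 to 12 with 1 library left out. Over all sgRNAs these filters gave 75.8% and 65.1% called. Both filters leave fewer sgRNAs to test, and 13 of the 16 passed through DMSO counts alone, so these calls are no support for a difference. The gene-level count, 7 of 10, was 4 of 6 tested under the median filter (67.7% of all genes tested), 0 with the replicate block (0 of 20409 genes) and 5 to 8 with 1 library left out (56.6% to 67.1%). Same-numbered DMSO and erlotinib libraries carry the same forward primer label. Their deviations gave correlations of 0.000756, −0.00331 and 0.00407 over sgRNAs. Only 5.34% of sgRNAs with a target had a count in any erlotinib library, so these correlations cannot decide whether the libraries are paired. The main fits did not pair them, and the gene-level calls depend on that choice. IGF1, IGF2, IGFBP2, IGFBP3 and IGFBP5 were called in every alternative in which they were tested except the block, while IGF2R was also lost without DMSO replicate 3 and IGFBP7 in 7 of 12 alternatives. DESeq2 gave no adjusted p for IGFBP1 and IGFBP6. A count of 0 allows up to 3 counts at these depths, IGFBP6 sgRNA 6 was in all 3 DMSO libraries only through 1 count in replicate 3, and a gene with 1 or 2 detected sgRNAs rests on them. Apart from the smaller numbers tested, the causes of these changes were not tested.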
